A study of Rattus norvegicus with 60 samples.

Results

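The genes described here are 36 extracellular matrix and remodelling genes, taken by symbol from a list, and all 36 were found among the 34322 genes counted. They comprise 5 fibrillar collagens, 5 collagen VI and fibril-associated collagen chains, 7 basement membrane components, 4 small leucine-rich proteoglycans, 6 elastic fibre and cross-linking proteins, 4 adhesive and matricellular glycoproteins, and 5 proteases and protease inhibitors. Libraries of total RNA were made from liver and from mesenteric adipose tissue of Sprague-Dawley rats at 5 months of age, 30 per tissue. Prenatal alcohol exposure (PAE) was given by vaporized ethanol to the dams for 12 days, between gestational days 8 and 20, and control dams had room air. Stroke rats were taken 2 days after occlusion of the middle cerebral artery, and naive rats were littermates without stroke; the labels describe no sham operation. In each tissue there were 8 PAE stroke, 8 PAE naive, 7 control stroke and 7 control naive libraries, with 4 females in every group and 4 PAE but 3 control males.

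The extracellular matrix is the protein scaffold between cells. Fibroblasts and related stromal cells deposit fibrillar collagens, cross-linked by lysyl oxidases, while basement membranes of collagen IV, laminin and nidogen underlie endothelium, epithelium and single adipocytes. In the liver, hepatic stellate cells are the main source of scar collagen, and hepatocytes secrete plasma fibronectin and collagen XVIII. Matrix metalloproteinases cut the scaffold and tissue inhibitors of metalloproteinases (TIMPs) hold them back.

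Total counts per library ran from 9.81 to 25.4 M in adipose tissue and from 7.72 to 30.4 M in liver (M, 1000000 reads). Nuclear ribosomal RNA took 0.469% to 50.0% of counts in adipose libraries and 0.626% to 51.1% in liver libraries, and passed 40% in 1 adipose and 3 liver libraries. Adipocyte markers averaged 8.83 to 9.95 in adipose and -0.25 to 0.71 in liver libraries (lowest to highest, mean log2 CPM over a marker list, CPM being counts per 1000000 reads), and hepatocyte markers -0.99 to 1.86 in adipose and 11.63 to 12.36 in liver libraries. In the adipose PAE stroke group 3 libraries carried markers of other cells. The lymphocyte list stood at 4.86 in male 2, where the next highest adipose library had 2.22. The pancreatic acinar list stood at 1.93 in female 2 and 0.64 in female 3, where the median of all 30 was -1.69. Of the adipose calls on listed genes, those of Nid1 after stroke in PAE rats and of Sparc between the sexes were lost without these libraries. Genes outside the list are given with all libraries only. The smooth muscle list was highest in naive adipose libraries, control naive male 2 at 9.52 and PAE naive male 4 at 9.30. The median of all 30 was 6.76. In whole tissue, fewer cells of a type and less RNA per cell cannot be told apart.

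The first comparison asked how the matrix genes differed between the 2 tissues. Adipose tissue carried far more of most matrix transcripts: 32 of the 36 genes were higher in adipose tissue than in liver and 4 were lower, where 50.0% of all genes tested were called higher and 38.4% lower, 88.4% in all (edgeR quasi-likelihood test on all 60 libraries, Benjamini-Hochberg adjusted p under 0.05). The median log2 difference of the 36 genes was 3.21, against 0.24 over all 19686 genes tested. All 5 fibrillar collagens, all 5 collagen VI and fibril-associated chains and all 6 elastic fibre and cross-linking genes were higher in adipose tissue. The 4 lower genes were Col18a1, Fn1, Mmp14 and Bgn, of which Mmp14 and Bgn were not lower in CPM scaled within each tissue. CPM values below are scaled within each tissue, and log2 differences between tissues come from the fit on both.

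Postn (periostin, a matricellular protein of collagen-rich tissue) had 122 CPM at the lowest, 258 at the median and 450 at the highest in adipose libraries, against 0, 0 and 0.43 CPM in liver libraries. Its 27 reads in liver lay in 9 of the 30 libraries, 11 of them in 1 library, so the liver level was near the limit of detection and Postn could not be tested within liver. Col15a1 (collagen XV, at the outer face of basement membranes) had 196 to 817 CPM in adipose libraries with a median of 434, against 0 to 0.936 CPM in liver libraries with a median of 0.30. Neither gene's adipose and liver values overlapped. The fitted log2 differences were 11.82 ± 0.245 (SE) for Postn and 9.43 ± 0.20 for Col15a1, and for such low liver counts they depend on the prior count. Next came 3 small leucine-rich proteoglycans, which coat collagen fibrils and steer their assembly: Lum (lumican) at 6.29 ± 0.193, Dcn (decorin) at 5.98 ± 0.145 and Fmod (fibromodulin) at 5.78 ± 0.169. Lum had 50.6, 117 and 226 CPM in adipose libraries (lowest, median and highest), against 0.065, 0.745 and 2.18 CPM in liver. Dcn had 496, 796 and 1128 CPM in adipose libraries, against 2.84, 5.52 and 17.7 CPM in liver. Fmod had 16.5, 36.7 and 107 CPM in adipose libraries, against 0, 0.322 and 1.19 CPM in liver, and 8 liver libraries held at most 3 of its reads. The sixth gene was Col1a1, the main chain of collagen I, at 5.27 ± 0.229, with 124.8, 368 and 1200 CPM in adipose libraries, against 1.5, 6.01 and 11.8 CPM in liver. For each of these 4 genes the lowest adipose library lay above the highest liver library. The share of all genes whose tissues separate in this way was not counted, and 88.4% of all genes were called between the tissues.

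Of the genes called lower in adipose tissue, Col18a1, whose product is a basement membrane collagen and the parent of endostatin, had 81.5, 134 and 417 CPM in adipose libraries, against 923, 1397 and 2030 CPM in liver libraries. Fn1 (fibronectin, the adhesive glycoprotein of plasma and tissue) had 299, 656 and 2422 CPM in adipose libraries, against 2387, 4310 and 7424 CPM in liver libraries. The tissues did not overlap for Col18a1 and met at a single adipose library for Fn1; the differences were -4.11 ± 0.121 and -3.57 ± 0.156. Mmp14, a membrane-bound metalloproteinase that activates pro-Mmp2, differed by -0.82 ± 0.071, with 56.2, 102 and 169 CPM in adipose libraries, against 48.8, 98.6 and 161 CPM in liver. Bgn (biglycan, a proteoglycan related to decorin) differed by -0.25 ± 0.098, with 83.4, 178 and 569 CPM in adipose libraries, against 67.1, 129 and 271 CPM in liver. For both genes the tissues overlapped and the medians of CPM scaled within each tissue were higher in adipose tissue, so the lower call rests on the scaling across tissues. The call on Bgn was lost with RLE scaling and with DESeq2; the other 35 calls held with both. RLE scaling moved the median of all genes to 0.34.

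**Figure D1:**
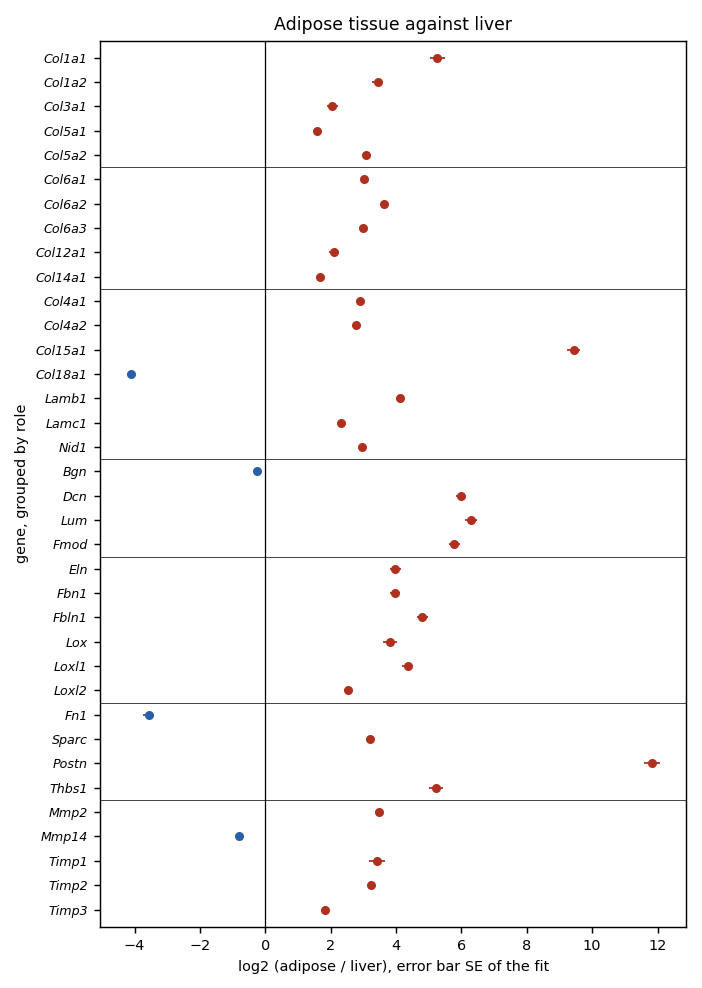
Log2 difference between adipose tissue and liver (adipose over liver) of each of the 36 genes, grouped by role, with its SE as the error bar; red points are genes called higher in adipose tissue and blue points genes called lower. The 4 blue points are Col18a1, Bgn, Fn1 and Mmp14, of which Bgn and Mmp14 are not lower in CPM scaled within each tissue, and Postn lies farthest to the right at 11.82.

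The mean log2 CPM over all 36 genes gave a level for the whole list in each library. In adipose tissue it averaged 8.13 ± 0.580 (SD, n = 8) in PAE stroke rats and 8.25 ± 0.237 (n = 8) in PAE naive rats, 8.11 ± 0.325 (n = 7) in control stroke rats and 8.25 ± 0.305 (n = 7) in control naive rats. In liver it averaged 4.10 ± 0.260 in PAE stroke rats and 4.11 ± 0.129 in PAE naive rats, 3.97 ± 0.353 in control stroke rats and 4.18 ± 0.231 in control naive rats. With sexes weighted equally, the stroke differences were -0.12 in PAE and -0.17 in control adipose tissue (pooled SD 0.380), and -0.01 in PAE and -0.24 in control liver (pooled SD 0.223). Control liver was the one case where the difference passed the SD between libraries. There stroke males 1, 2 and 3 had list levels of 3.39, 3.85 and 3.71. Naive males 1, 2 and 3 had 4.37, 4.16 and 3.80 (mean 4.11), so naive male 3 lay within the range of the stroke males. The females averaged 4.21 after stroke, against 4.23 in naive females. Nuclear ribosomal RNA took 51.1%, 17.9% and 28.7% of counts in control stroke males 1, 2 and 3, against 1.54%, 2.15% and 44.9% in control naive males 1, 2 and 3. It took 1.37% to 2.23% in control stroke females, against 0.626% to 2.56% in control naive females. The part of this RNA share in the control liver differences was not tested.

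The spread between stroke libraries was wide. PAE stroke male 1 at 8.99, PAE stroke male 4 at 8.84 and control stroke male 2 at 8.78 were the 3 highest adipose libraries, and PAE stroke male 2, the library with the lymphocyte markers, was the lowest at 7.39. In those 3 high libraries the fibrillar collagens stood at 10.4, 10.3 and 9.89 (median of the 30 adipose libraries 9.09). Their 14 collagen folding and processing genes stood at 6.61, 6.37 and 6.47 (median 5.73). Macrophage markers stood at 4.60, 4.49 and 4.96 in the same libraries (median 3.90), and fibroblast markers at 6.34, 6.54 and 6.46 (median 6.08). The part of macrophage and fibroblast content in the matrix level of these libraries was not tested.

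**Figure D2:**
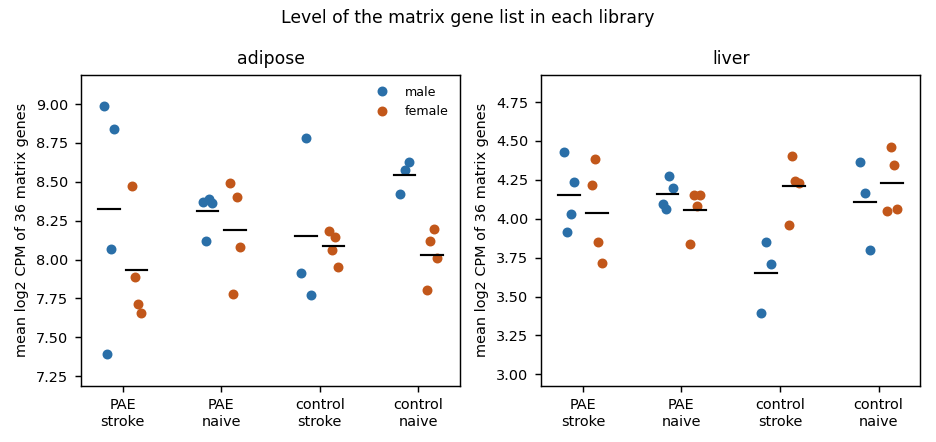
Mean log2 CPM over the 36 genes in every library, by tissue, with stroke left of naive for PAE and for control rats, males in blue and females in orange; bars are the mean of each sex. Adipose stroke groups hold both the highest (8.99) and the lowest (7.39) library, and the control stroke males are low in liver.

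In liver, 2 days after stroke, every listed gene that was called was lower. Among control rats 5 of 35 genes tested were lower after stroke and none was higher, where 0.95% of all genes were called lower and 2.0% higher, 2.95% in all. Among PAE rats 4 of 35 were lower and none was higher, where 2.26% of all genes were called lower and 4.74% higher, 7.0% in all. The median log2 change of the 35 was -0.22 in control rats, where all genes had -0.01, and 0.11 in PAE rats, where all genes had 0.00. Col14a1 and Bgn were called in both exposures.

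Col14a1, a fibril-associated collagen that binds to the surface of collagen I fibrils, had 35.8, 58.9 and 66.5 CPM in PAE stroke livers (lowest, median and highest), against 70.2, 77.8 and 96.3 CPM in PAE naive livers. In control rats it had 31.5, 64.2 and 84.7 CPM in stroke livers, against 74.1, 89.3 and 102 CPM in naive livers. All 8 PAE stroke livers lay below every PAE naive liver, and all 7 control stroke livers were below the same-sex naive mean although the groups overlapped. The share of all genes that separate in this way was not counted. It fell by 0.53 ± 0.111 on the log2 scale in PAE rats (edgeR adjusted p = 0.00357) and by 0.72 ± 0.121 in control rats (edgeR adjusted p = 0.000873). Bgn had 67.1, 91.9 and 133 CPM in PAE stroke livers, against 103, 139 and 208 CPM in PAE naive livers. In control rats it had 67.7, 124 and 179 CPM in stroke livers, against 117, 169 and 271 CPM in naive livers. Every stroke liver was below the same-sex naive mean in both exposures, with overlap of the groups. Bgn fell by 0.56 ± 0.121 in PAE rats (edgeR adjusted p = 0.00389) and by 0.63 ± 0.131 in control rats (edgeR adjusted p = 0.00553). Both genes kept these calls in each of the 30 fits that left out 1 library.

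Both matrix metalloproteinases of the list were lower after stroke, each with a call in 1 exposure. Mmp14 had 48.8, 73.1 and 110 CPM in PAE stroke livers, against 73.4, 112 and 161 CPM in PAE naive livers, and all 8 stroke livers were below the same-sex naive mean. It fell by 0.53 ± 0.135 in PAE rats (edgeR adjusted p = 0.0149), and its change in control rats was -0.27 (adjusted p = 0.372). Mmp2 (gelatinase A) had 3.37, 6.24 and 8.93 CPM in control stroke livers, against 6.57, 8.70 and 12.8 CPM in control naive livers, with all 7 stroke livers below the naive mean of their sex. It fell by 0.71 ± 0.168 in control rats (edgeR adjusted p = 0.0157), and without control naive male 1 the adjusted p was 0.0844. In PAE rats its change was -0.40 (adjusted p = 0.112). The interaction of exposure and stroke was not called for either gene.

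Lox, Lamb1 and Col6a3 were also lower in 1 exposure each, and these calls were less stable. Lox (lysyl oxidase, which cross-links collagen and elastin) had 0.394, 1.01 and 1.65 CPM in PAE stroke livers, against 0.359, 3.34 and 16.7 CPM in PAE naive livers. The high naive values were all male, at 4.83 to 16.7 CPM, and the naive females, at 0.359 to 1.85 CPM, overlapped the stroke range. It fell by 1.55 ± 0.456 in PAE rats (edgeR adjusted p = 0.0377) and kept the call in 20 of 30 fits with 1 library left out, with an adjusted p of 0.107 without PAE naive female 3. Lamb1 (laminin beta 1 chain of basement membranes) had 4.97, 9.73 and 14.0 CPM in control stroke livers, against 11.5, 13.1 and 21.5 CPM in control naive livers. It fell by 0.56 ± 0.159 (edgeR adjusted p = 0.0482) and kept the call in 10 of 30 such fits, with an adjusted p of 0.123 without control stroke male 1. Col6a3 (a chain of the microfibrillar collagen VI) had 13.7, 32.9 and 52.3 CPM in control stroke livers, against 24.0, 35.3 and 55.4 CPM in control naive livers. It fell by 0.54 ± 0.152 (edgeR adjusted p = 0.0451) and kept the call in 14 of 30 such fits, with an adjusted p of 0.152 without control naive male 1. The 3 control stroke males, at 13.7 to 16.8 CPM, lay below every other control liver, and the control stroke females at 32.9 to 52.3 CPM lay within the naive range. Without the 3 liver libraries over 40% nuclear ribosomal RNA, neither Lamb1 (adjusted p = 0.225) nor Col6a3 (adjusted p = 0.0729) was called.

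**Figure D3:**
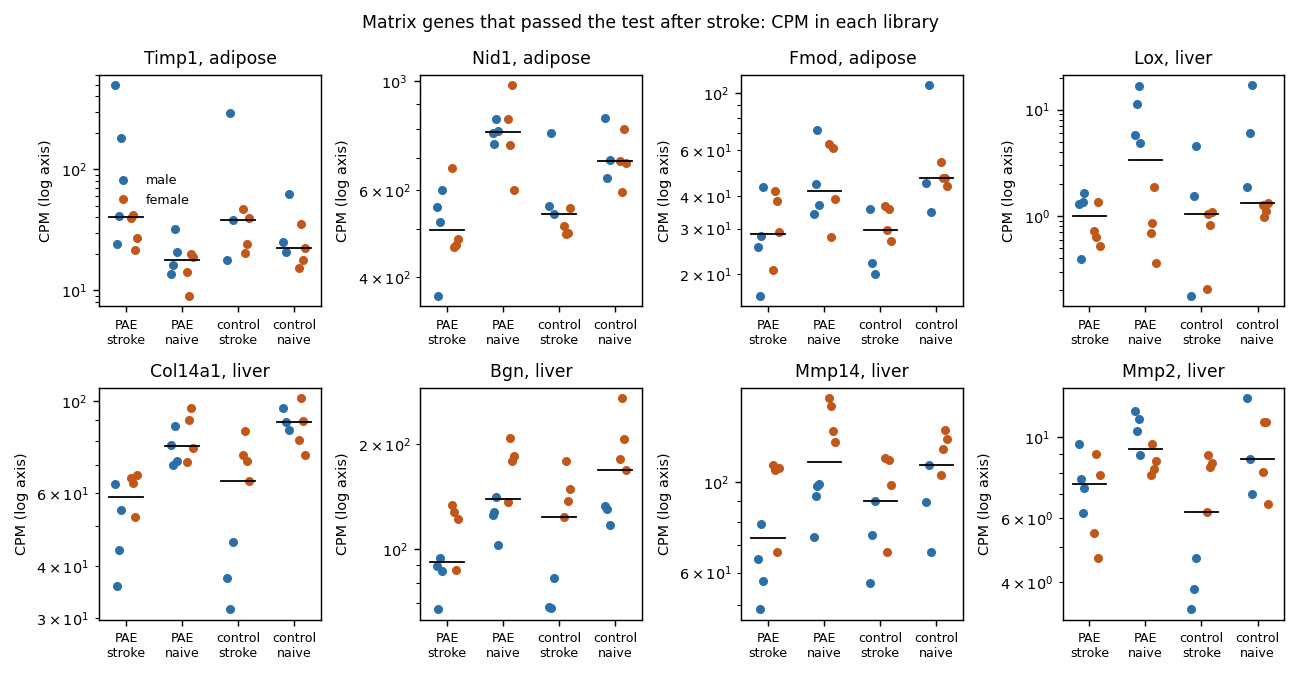
CPM in every library, on log axes, for 8 of the 10 genes called after stroke, each in the tissue named above its panel, with stroke left of naive in each exposure, males in blue and females in orange; bars are group medians. Col14a1 in PAE liver shows no overlap, and 1 PAE stroke male reaches 497 CPM of Timp1 in adipose tissue. The share of all genes without overlap was not counted.

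RefSeq promoter windows, the 250 bases before each gene's start in build GRCr8, were available for 22 of the 36 genes and for 5 of the 10 genes called after stroke. That of Lamb1 lies at chr6:53562846-53563095 on the plus strand and is shown, as are those of Nid1, Timp1 and Fmod below, because these genes carry calls after stroke. Capitals mark matches to 4 short motifs searched on both strands. The GC box, spelled GGGCGG, was in 12 of the 22 windows of listed genes and in 30.5% of all 33469 windows, and Lamb1 had 2 matches to it.
Lamb1: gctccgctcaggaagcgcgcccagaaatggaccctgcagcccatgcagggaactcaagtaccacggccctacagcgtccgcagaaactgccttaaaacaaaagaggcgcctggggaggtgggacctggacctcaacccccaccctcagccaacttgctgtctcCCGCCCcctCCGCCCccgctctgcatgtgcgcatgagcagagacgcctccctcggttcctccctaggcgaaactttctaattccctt
The AP-1 motif, spelled TGANTCA, was in 1 of the 22 windows and in 6.34% of all windows. The TATA box, spelled TATAAA, was in 2 of the 22 and in 12.9% of all. The STAT motif, spelled TTCNNNGAA, was in 2 of the 22 and in 7.67% of all. No letter was shared between matches in the windows shown. Col6a3, the remaining called gene with a window, held no match to any of the 4 motifs, and its window is not shown. A match is a description of the letters only.

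No liver gene of the list was called higher after stroke, but a few moved in nearly every library without passing the test. Fn1 had 3748, 4663 and 7424 CPM in control stroke livers, against 2387, 3956 and 4430 CPM in control naive livers. All 7 control stroke livers were above the same-sex naive mean, with a change of 0.50 (adjusted p = 0.0995). In PAE livers 6 of 8 did, with a change of 0.32. Dcn had 4.75, 7.27 and 17.7 CPM in PAE stroke livers, against 3.65, 4.86 and 5.83 CPM in PAE naive livers, and 8 of 8 stroke livers were above the same-sex naive mean (change 0.79, adjusted p = 0.0809; 0.82 in control rats, adjusted p = 0.150). Timp1, the inducible inhibitor of metalloproteinases, had changes of 0.67 in PAE livers (adjusted p = 0.116) and 0.77 in control livers (adjusted p = 0.149). The 5 fibrillar collagens ranged from -0.00 to 0.50 in PAE livers and from -0.55 to -0.18 in control livers, and none passed the test in either. The 6 elastic fibre and cross-linking genes ranged from -1.55 to 0.82 in PAE livers and from -1.23 to -0.07 in control livers, with Lox the one call.

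Genes that act on the matrix from outside the list moved less uniformly. Of 13 collagen folding and processing genes tested in each tissue, 2 rose in liver in both exposures: Pcolce, which enhances procollagen C-proteinase, by 1.69 in PAE livers (edgeR adjusted p = 0.000223) and 1.14 in control livers (0.0271), and P4hb, the beta subunit of prolyl 4-hydroxylase, by 0.59 (0.00619) and 0.54 (0.0327). Of 15 other matrix proteases and inhibitors, Adam12 fell by 1.17 in PAE livers (edgeR adjusted p = 0.00309) and by 1.13 in control livers (0.0166). Of 17 matrix receptors 1 was called in liver, the syndecan Sdc4, at 0.68 in PAE rats (edgeR adjusted p = 0.033). Of 20 transforming growth factor beta (TGF-beta) and fibrogenic signalling genes 1 was called, the inhibitory Smad7, at -0.56 in PAE rats (edgeR adjusted p = 0.0439).

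Stellate cell markers, the list closest to the liver cells that make matrix, had summed levels of 383 to 697 CPM in PAE stroke livers, against 389 to 762 CPM in PAE naive livers, and of 255 to 651 CPM in control stroke livers, against 476 to 1012 CPM in control naive livers. Of its 10 genes 1 was called in each exposure: Rgs5 was higher by 1.24 in PAE livers and Lrat was lower, at -0.51, in control livers (edgeR adjusted p = 0.0398). Neutrophil markers summed to 2.07 to 7.40 CPM in PAE stroke livers, against 0.926 to 2.24 CPM in PAE naive livers, with 4 of 4 tested genes higher. In control rats they summed to 2.2 to 5.82 CPM in stroke livers, against 0.475 to 2.48 CPM in naive livers, with 3 of 4 higher. The liver fibroblast list had no call. The part of stellate cell and neutrophil content in the matrix changes was not tested.

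In adipose tissue fewer genes of the list were called after stroke, with both directions together no larger a share than of all genes. Among PAE rats Timp1 rose and Nid1 fell, 2 of 36 genes tested, where 3.31% of all genes were called higher and 2.97% lower, 6.28% in all. Among control rats Fmod fell, 1 of 36, where 3.26% of all genes were called higher and 0.965% lower, 4.22% in all. The median log2 change of the 36 genes was -0.05 in PAE rats, where all genes had 0.03, and -0.16 in control rats, where all genes had -0.02.

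Nid1 (nidogen 1, which links laminin to collagen IV in basement membranes) had 366, 498 and 668 CPM in PAE stroke adipose tissue, against 601, 790 and 983 CPM in PAE naive tissue. All 8 stroke libraries were below the same-sex naive mean, and the groups overlapped. It fell by 0.62 ± 0.117 (edgeR adjusted p = 0.0041) and kept the call in all 30 fits with 1 library left out, but not without the 3 libraries that carry lymphocyte or pancreatic markers (change -0.49, adjusted p = 0.056). In control rats Nid1 had 488, 536 and 785 CPM in stroke tissue, against 597, 687 and 841 CPM in naive tissue. Of the 7 control stroke libraries 6 were below the naive mean of their sex. The exception was control stroke male 2 at 785 CPM, with the others at 488 to 559 CPM. The control change was -0.32 ± 0.126 (edgeR adjusted p = 0.149). The other 6 basement membrane genes were not called in either exposure. The window of Nid1, at chr17:93069036-93069285 on the plus strand, held 2 GC box matches.
Nid1: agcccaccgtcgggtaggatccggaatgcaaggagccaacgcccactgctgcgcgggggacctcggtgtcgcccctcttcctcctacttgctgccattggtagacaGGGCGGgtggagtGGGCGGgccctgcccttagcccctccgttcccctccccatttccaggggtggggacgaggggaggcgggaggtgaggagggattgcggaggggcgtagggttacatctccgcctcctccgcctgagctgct

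Timp1 had 21.4, 40.3 and 497 CPM in PAE stroke adipose tissue, against 9.0, 17.6 and 32.1 CPM in PAE naive tissue. All 8 stroke libraries were above the same-sex naive mean with overlap of the groups, and PAE stroke male 1 at 497 and male 4 at 183 CPM stood far above the other 6, which reached at most 41.7. It rose by 2.11 ± 0.529 (edgeR adjusted p = 0.0198), and without PAE stroke male 1 the change was 1.53 and the adjusted p 0.0614. In control rats Timp1 had 17.8, 38.4 and 290 CPM in stroke adipose tissue, against 15.2, 22.4 and 62.9 CPM in naive tissue, with 5 of 7 stroke libraries above the naive mean of their sex and a change of 1.12 ± 0.551 (adjusted p = 0.25). The 290 CPM belonged to control stroke male 2. These 3 high males are the libraries with the highest list levels, whose macrophage and fibroblast marker levels are given above. Neutrophil markers stood at 0.82 in PAE stroke male 1, -0.72 in PAE stroke male 4 and 0.31 in control stroke male 2 (median of the 30 adipose libraries -0.87), the highest and second highest being the first and the last of these. Mesothelial markers stood at 6.35, 7.28 and 6.42 in the same libraries (median 6.10), highest in PAE stroke male 4. The part of these cells in the Timp1 change was not tested. The window of Timp1, at chrX:3771123-3771372 on the minus strand, held 1 GC box match.
Timp1: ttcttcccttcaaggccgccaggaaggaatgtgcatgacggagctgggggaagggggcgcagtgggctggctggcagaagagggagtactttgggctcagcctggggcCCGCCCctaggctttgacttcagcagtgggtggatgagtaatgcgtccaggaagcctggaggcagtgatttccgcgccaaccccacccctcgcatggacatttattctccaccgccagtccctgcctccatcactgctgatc

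Fmod had 16.5, 28.6 and 43.4 CPM in PAE stroke adipose tissue, against 27.8, 41.8 and 71.7 CPM in PAE naive tissue. In control rats it had 20.1, 29.6 and 36.5 CPM in stroke tissue, against 34.7, 47.1 and 107 CPM in naive tissue. All 15 stroke libraries were below the same-sex naive mean and exposure, and the groups overlapped in both exposures. The change was -0.64 ± 0.236 in PAE rats (adjusted p = 0.0986) and -0.91 ± 0.256 in control rats (edgeR adjusted p = 0.041). The control call held in 21 of 30 fits with 1 library left out, with a change of -0.59 and an adjusted p of 0.189 without control naive male 2, the library at 107 CPM. Control naive male 2 also had the highest smooth muscle list level of the 30 adipose libraries, 9.52 against a median of 6.76. The part of smooth muscle content in the Fmod call was not tested. The window of Fmod, at chr13:48045317-48045566 on the plus strand, held 1 GC box match and 1 match to the STAT letters.
Fmod: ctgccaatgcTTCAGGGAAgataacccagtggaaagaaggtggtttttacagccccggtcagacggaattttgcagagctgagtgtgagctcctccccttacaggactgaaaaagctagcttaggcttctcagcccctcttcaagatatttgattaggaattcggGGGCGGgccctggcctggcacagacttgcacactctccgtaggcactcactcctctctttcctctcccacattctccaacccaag

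The remaining adipose genes were uncalled. Postn had 122, 209 and 324 CPM in PAE stroke tissue, against 181, 357 and 450 CPM in PAE naive tissue, and 156, 205 and 276 CPM in control stroke tissue, against 220, 293 and 437 CPM in control naive tissue. All 15 stroke libraries were below the same-sex naive mean and exposure, with changes of -0.63 (adjusted p = 0.0789) and -0.56 (adjusted p = 0.175). Col14a1, the gene that fell in liver, had changes of -0.53 (adjusted p = 0.111) in PAE and -0.72 (adjusted p = 0.0594) in control adipose tissue. Thbs1 (thrombospondin 1, a matricellular activator of latent TGF-beta) had changes of -0.78 (adjusted p = 0.257) and -0.85 (adjusted p = 0.292). The 5 fibrillar collagens ranged from -0.05 to 0.50 in PAE rats and from -0.27 to 0.12 in control rats.

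**Figure D4:**
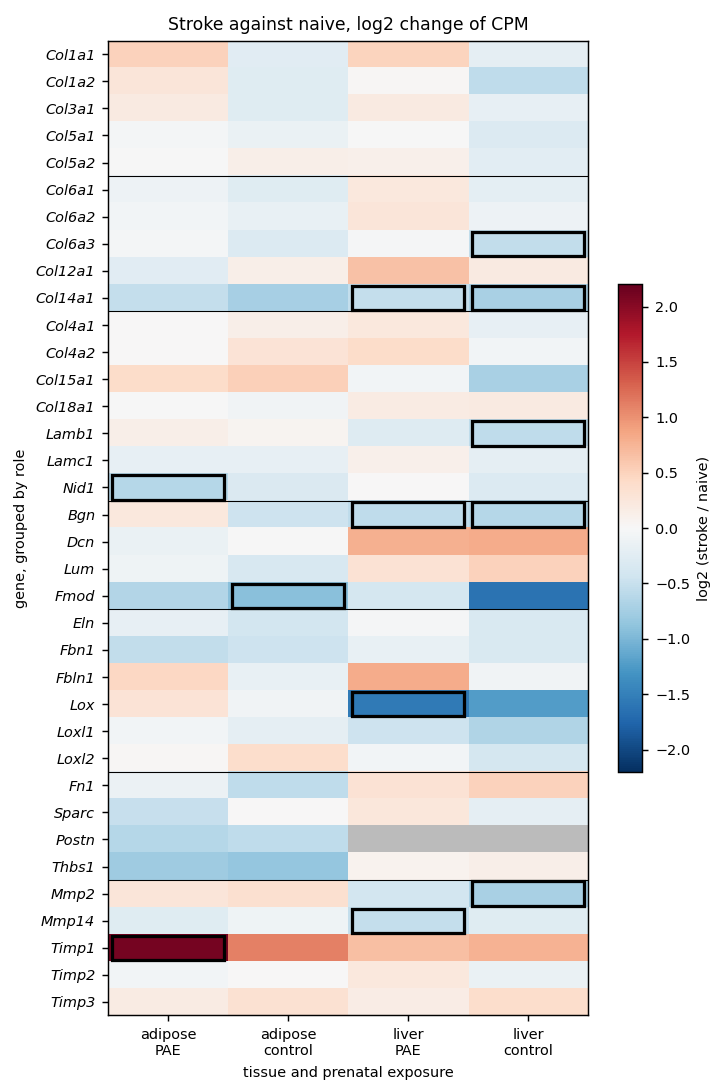
Log2 change after stroke (stroke over naive) of each gene as colour, red for higher and blue for lower, with genes in rows grouped by role and a column for PAE and for control rats in each tissue; black frames mark an edgeR adjusted p under 0.05 and grey marks Postn, not tested in liver. In liver every framed cell is blue, and in adipose tissue the one framed red cell is Timp1 in PAE rats.

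Collagen folding and processing genes all had positive values in PAE adipose tissue, from 0.01 to 0.48, yet none of the 13 was called; in control adipose tissue Plod1, a lysyl hydroxylase, rose by 0.55 (edgeR adjusted p = 0.0103). The TGF-beta receptor gene Tgfbr2 rose by 0.33 in PAE (edgeR adjusted p = 0.0125) and 0.29 in control adipose tissue (0.0378), and the collagen receptor Ddr2 fell by 0.68 (0.00841) and by 0.55 (0.0428). Itga11, a collagen-binding integrin chain, fell by 0.67 in PAE adipose tissue (edgeR adjusted p = 0.00976), and Adamts4, an aggrecanase, by 1.23 (0.0446). Beside these, 2 of 10 fibroblast markers were lower in PAE adipose tissue, Dpt at -0.95 and Clec3b at -0.94, and 3 of 7 smooth muscle markers were lower. The fibroblast list summed to 595 to 1171 CPM in PAE stroke tissue, against 1006 to 1721 CPM in PAE naive tissue, and to 593 to 1247 CPM in control stroke tissue, against 783 to 1240 CPM in control naive tissue. The neutrophil genes S100a9 and S100a8 were higher by 3.12 and 3.67 in PAE tissue, and S100a9 by 2.81 in control tissue. The whole neutrophil list summed to 3.87 to 49.5 CPM (median 8.26) in PAE stroke tissue, against 5.11 to 12.5 CPM (median 8.12) in PAE naive tissue. In control rats it summed to 2.57 to 21.1 CPM (median 6.63) in stroke tissue, against 3.23 to 12.5 CPM (median 6.50) in naive tissue. The medians of the list thus hardly differed. The part of fibroblast and neutrophil content in the adipose matrix changes was not tested.

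Whether the response to stroke differed between the tissues was tested as adipose change minus liver change over both exposures and sexes. Of the 36 genes 4 passed, where 7.99% of all genes did. Mmp2 differed by 0.87 ± 0.181 (edgeR adjusted p = 0.00113): its adipose changes were 0.27 in PAE and 0.36 in control rats, and its liver changes -0.40 and -0.71. Lamb1 differed by 0.52 ± 0.137 (edgeR adjusted p = 0.0109), with adipose changes of 0.13 and 0.06 and liver changes of -0.29 and -0.56. Dcn differed the other way, by -0.87 ± 0.233 (edgeR adjusted p = 0.0128), with adipose changes of -0.14 and -0.01 and liver changes of 0.79 and 0.82. Lox differed by 1.47 ± 0.427 (edgeR adjusted p = 0.0235), with adipose changes of 0.30 and -0.08 and liver changes of -1.55 and -1.23. With all libraries of 1 replicate number left out in turn, Mmp2 kept its call in 3 of 4 fits (adjusted p = 0.0739 without replicate 1). Lamb1 kept it in 2 of 4 (0.132 without replicate 1, 0.0802 without replicate 2), Dcn in 2 of 4 (0.121 without replicate 2, 0.105 without replicate 3), and Lox in none, at 0.0586 to 0.118.

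Prenatal alcohol was compared with control separately in naive and in stroke rats. None of the listed genes was called between exposures in either tissue, where 0.0% of all genes were called (edgeR, adjusted p under 0.05). DESeq2 called 0 listed genes in these comparisons, with 16 genes of all in naive and 1 in stroke adipose tissue, and 0 in naive and 10 in stroke liver. At an unadjusted p under 0.05, 0 listed genes passed in naive and 0 in stroke adipose tissue, 0 in naive liver and 5 in stroke liver. The stroke liver genes with the smallest p were Col5a2, a chain of the fibril-nucleating collagen V, Col6a3, and Sparc, a collagen-binding matricellular protein. Col5a2 had 21.2, 25.1 and 28.6 CPM in PAE stroke livers, against 10.8, 21.4 and 30.4 CPM in control stroke livers, with overlap throughout and a difference of 0.44 ± 0.152 (edgeR adjusted p = 0.725). Col6a3 differed by 0.41 and Sparc by 0.34. In stroke livers 25 of 35 genes were numerically higher in PAE rats, with a median of 0.19 where all genes had 0.02. In naive livers 9 of 35 were, with a median of -0.11 and Fmod, Loxl2 and Col12a1 at the smallest p, at -0.63, -0.21 and -0.30. In naive adipose tissue the smallest p were those of Fbln1 (fibulin 1) at -0.40 ± 0.196, Bgn at -0.50 and Sparc at 0.50, and in stroke adipose tissue those of Mmp14 at -0.22, Fn1 at 0.48 and Col6a3 at 0.30.

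The interaction asked whether the stroke response differed between PAE and control rats, and 0 listed genes passed it in either tissue, where 0.0% of all genes did by edgeR and DESeq2 called 0 listed genes. At an unadjusted p under 0.05 it held 1 listed gene in adipose tissue, Fbln1 at 0.61 ± 0.277, and 3 in liver. Those 3 were Col6a3 at 0.52, Sparc at 0.45 and Col6a1 at 0.45, with adjusted p of 1 by edgeR. The median interaction of the 35 liver genes was 0.31, where all genes had 0.02, and all 5 fibrillar collagens had positive values, from 0.30 to 0.70. These liver comparisons share the control stroke livers, among them the 3 males with low list levels and 17.9% to 51.1% nuclear ribosomal RNA.

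Many of the genes differed between the sexes, mostly lower in male liver and, where called, higher in male adipose tissue. In liver 14 of 35 genes were lower and 2 were higher in males. Of all 15889 genes tested 2616 (16.5%) were called lower and 2550 higher in males, 32.5% in either direction. Bgn had 67.1, 98.6 and 141 CPM in males, against 86.7, 159 and 271 CPM in females, a difference of -0.68 ± 0.09 (edgeR adjusted p = 9.0e-07). Eln (elastin) had 2.36, 3.34 and 4.94 CPM in males, against 3.18, 6.64 and 13.9 CPM in females, a difference of -0.94 ± 0.176 (edgeR adjusted p = 0.000137). Mmp14 had 48.8, 76.5 and 110 CPM in males, against 67.3, 114 and 161 CPM in females, a difference of -0.54 (edgeR adjusted p = 0.000111). Males lay toward the low end for all 3 genes, and the sexes overlapped for each.

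Timp3 at -0.74 and Timp2 at -0.40, 2 further inhibitors of metalloproteinases, were also lower in male liver. So were Col14a1, Lamb1, Col4a2, Col3a1, Col6a3, Col6a1, Col5a1, Col5a2 and Sparc, at -0.44 to -0.26. The 2 genes higher in male liver were Lox and Thbs1. Lox had 0.177, 3.23 and 17.0 CPM in males, against 0.205, 0.918 and 1.85 CPM in females, a difference of 2.06 ± 0.332 (edgeR adjusted p = 2.66e-05). Thbs1 had 6.75, 9.19 and 19.9 CPM in males, against 4.48, 6.25 and 10.9 CPM in females, a difference of 0.70 ± 0.147 (edgeR adjusted p = 0.000479). Male livers spread over a far wider range of Lox than female livers, and the naive males held the highest values. Of the 16 calls 12 held in all 30 fits with 1 library left out; Col5a1 and Col6a1 held in 28, Sparc in 16 and Col5a2 in 14. Without the 3 liver libraries over 40% nuclear ribosomal RNA, all of them male, 11 of the 16 were called, and Col4a2 (adjusted p = 0.0552), Col5a1 (0.104), Col5a2 (0.125), Col6a1 (0.104) and Sparc (0.114) were not. Beside these, 4 of 10 stellate cell markers and 5 of 9 macrophage markers were lower in male liver, and their part in the sex difference was not tested.

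In adipose tissue 4 of 36 genes were higher in males and none was lower, where 4.53% of all genes were called higher and 3.69% lower, 8.22% in all. Timp1 had 13.6, 28.7 and 497 CPM in males, against 9.0, 21.9 and 47.3 CPM in females (difference 1.35 ± 0.375, edgeR adjusted p = 0.0308). Col18a1 had 94.1, 171 and 417 CPM in males, against 81.5, 117 and 188 CPM in females (difference 0.60 ± 0.166, edgeR adjusted p = 0.0309). The sexes overlapped for both, and the highest libraries were male. Timp1 kept its call in 27 of 30 fits with 1 library left out and Col18a1 in 26. Without control stroke male 2 the adjusted p were 0.14 for Timp1 and 0.0807 for Col18a1, without PAE stroke male 1 they were 0.0649 and 0.0534. The other losses were control naive male 3 for Timp1 (0.0797), and control naive male 2 (0.058) and PAE naive male 1 (0.0538) for Col18a1. Col4a1, a collagen IV chain, and Sparc were higher by 0.37 and 0.57 (edgeR adjusted p = 0.0449 and 0.0488) but kept their calls in only 12 and 8 of 30 fits with 1 library left out. Sparc was also not called without the 3 libraries that carry lymphocyte or pancreatic markers. The median difference of the 36 genes was 0.30, where all genes had 0.01.

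**Figure D5:**
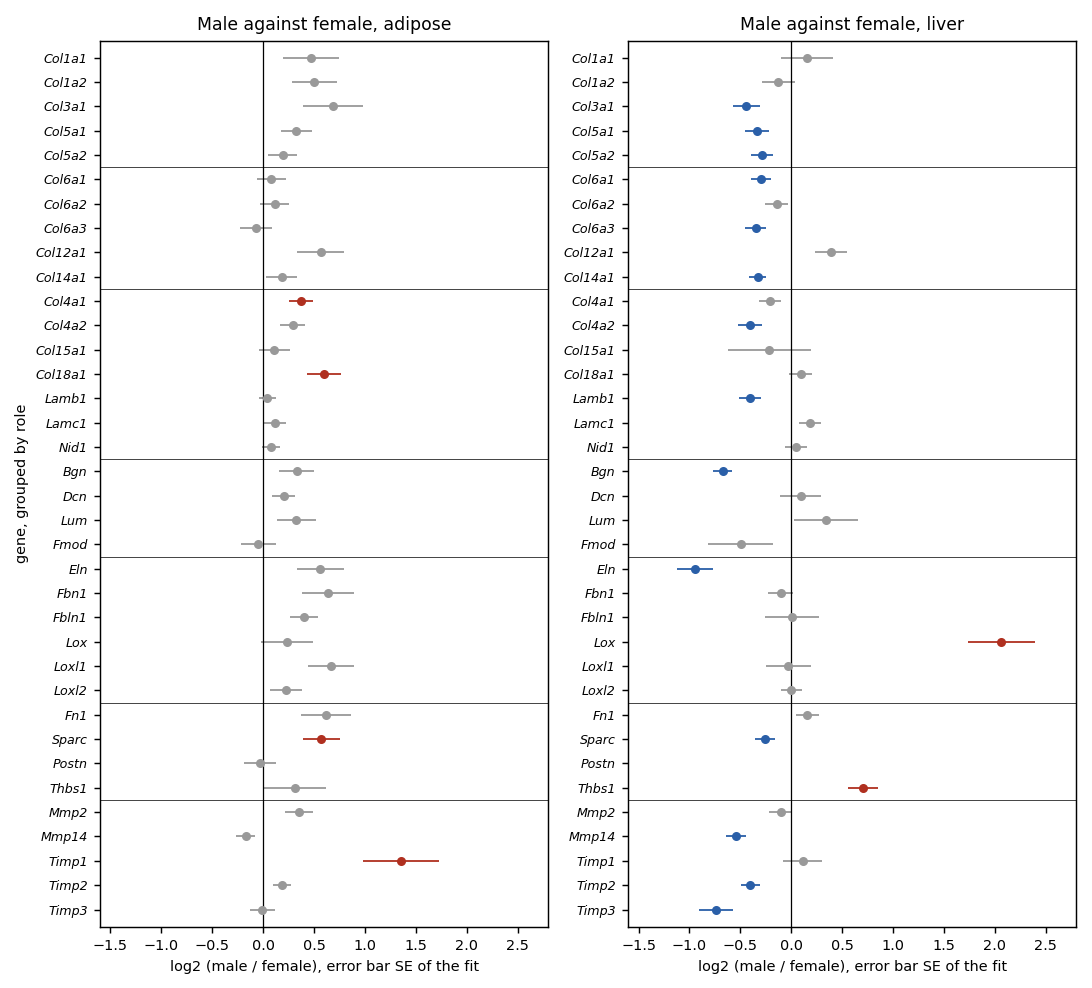
Log2 difference between males and females (males over females) of each gene, grouped by role, with its SE as the error bar, in adipose tissue and in liver; red points were called higher and blue points lower in males, and grey points were not called. In liver 14 points are blue and 2 are red, and in adipose tissue all 4 called points are red.

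In control liver several stroke changes were numerically larger in males. Col14a1 changed by -1.25 in males and -0.23 in females, Mmp2 by -1.21 and -0.18, and Col6a3 by -1.08 and 0.01. Lox, which is higher in naive males, changed by -2.19 in males and -0.68 in females. In PAE liver Lox had the widest gap of the called genes, at -2.90 in males and -0.08 in females, while Col14a1 changed by -0.67 and -0.43, Bgn by -0.56 and -0.59, and Mmp14 by -0.55 and -0.56. The control stroke males are the libraries with 17.9% to 51.1% nuclear ribosomal RNA given above, and its part in these male changes was not tested. The test of male response minus female response was added after these values were seen. It called 0 of 35 genes in control liver, where 0.0378% of all genes were called (0.0315% more negative and 0.00629% more positive in males), with 7 genes at an unadjusted p under 0.05 and 1 called by DESeq2, Col14a1. The smallest edgeR adjusted p were those of Col14a1 at -1.01 ± 0.242 (0.101), Col6a3 at -1.10 (0.185) and Mmp2 at -1.07 (0.205). In PAE liver it called 0 genes, where 0.0% of all genes were called, with 2 at an unadjusted p under 0.05 and 0 by DESeq2. In adipose tissue it also called 0 of 36 genes in PAE rats, with 2 at an unadjusted p under 0.05 and 0 by DESeq2, and 0 in control rats, with 6 at an unadjusted p under 0.05 and 1 by DESeq2, Fbln1, where 0.0% of all genes were called in each. The smallest p in control adipose tissue was that of Fbln1 at -1.68 ± 0.409 (edgeR adjusted p = 0.115), with 58.4 to 109 CPM in stroke males, against 154 to 207 CPM in naive males, and 111 to 209 CPM in stroke females, against 84.8 to 99.2 CPM in naive females. These ranges come from 3 males and 4 females per group, for a gene picked by its smallest p that edgeR did not call. How many genes of all separate in this way was not counted.

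The authors' deposited tables of the stroke comparisons listed 6 of the genes at an adjusted p under 0.05 in PAE liver, 4 in control liver, 2 in PAE adipose tissue and 4 in control adipose tissue. In PAE liver the authors' deposited table had Col14a1 at -0.52, Bgn at -0.56, Lox at -1.21 and Mmp14 at -0.52, and also Dcn at 0.69 and Col12a1 at 0.56. In control liver the authors' deposited table had Col14a1 at -0.58, Bgn at -0.58, Lamb1 at -0.47 and Fmod at -1.03. The authors' deposited tables had Timp1 at 1.19 and Nid1 at -0.58 in PAE adipose tissue, and Fmod at -0.71, Nid1 at -0.32, Postn at -0.49 and Thbs1 at -0.65 in control adipose tissue. The sign of these columns ran as stroke over naive for each of these genes when set beside the counts. For naive rats the authors' deposited PAE tables listed 0 of the genes.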

How the data were processed

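Per the submitters' processing notes, reads were trimmed with Trimmomatic, aligned to rn7 with HISAT2 and counted with HTSeq; versions and strand settings are not given in the sources used here. The deposited raw count of each gene in each library was the unit analysed. The authors also deposited log2 fold changes and adjusted p-values from DESeq2, quoted where named, and 90 columns of normalised signal that were not used.

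Genes were kept by filterByExpr (minimum count 10, by exposure, stroke and sex group) and tested with edgeR 4.0.16 in R 4.3.3 (TMM, robust quasi-likelihood, sexes weighted equally, Benjamini-Hochberg over 18546 adipose or 15889 liver genes, or 19686 in both). Low-count rules left out Postn in liver. List levels used log2 CPM with a prior count of 2. All members could be named; values are given for those called, up to 8 with the smallest p per comparison, else the 3 with the smallest p. Members, lists and parts of the tests were chosen with earlier results of these data known, and the test of the sex difference in stroke response was added. Alternatives were DESeq2 1.42.0, RLE scaling, no filter, no sex term, a replicate block, and removal of ribosomal RNA genes or of libraries over 40%. Leaving out each library was another, and leaving out the 3 adipose libraries was chosen after seeing the data. Within a tissue the replicate block was the title number alone, shared by exposures and sexes, so it did not pair stroke and naive littermates. In the fit on both tissues the block was the whole title code. The edgeR code was tested on simulated data. No 2 of 84 same-group pairs were copies. The labels do not say whether both tissues came from one animal; p-values measure the spread between libraries.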

Additional observations from a re-analysis of the deposited data

Results flagged for a closer look

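In 4 cases a value stood far from the other 6 of its group, by the gap to the nearest library over the group's range. Of 48 groups tested 4 were flagged, and chance flags about 1 in 20. Of these, 3 belong to adipose control stroke male 2: its list level of 8.78, against 7.77 to 8.18 in the others (gap over range 0.59), its Timp1 of 290 CPM, against 17.8 to 47.3 (0.651), and its Nid1 of 785 CPM, against 488 to 559 (0.717). The fourth is Fmod in adipose control naive male 2, at 107 CPM, against 34.7 to 54.0 (0.609). Leaving out that library changes the call on Fmod, as given above.

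The stroke response was called different between adipose tissue and liver for 4 of 36 genes, where 7.99% of all genes were (adipose minus liver, log2): Mmp2 at 0.874, Lamb1 at 0.524, Dcn at -0.873 and Lox at 1.47. With 1 replicate number left out, Mmp2 kept its call in 3 of 4 fits, Lamb1 and Dcn in 2 of 4, and Lox in none. Lamb1 and Lox were not called without the libraries over 40% nuclear ribosomal RNA.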

How the results depend on the processing

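No direction reversed. Counts of listed genes called changed as follows. For stroke in control adipose tissue (1 gene), DESeq2 gave 2, no filter 0, no sex term 0, the replicate block 0, and leaving out the 3 libraries with lymphocyte or pancreatic markers 2; leaving out single libraries gave 0 to 2. For stroke in PAE adipose tissue (2 genes), leaving out those 3 libraries gave 1 and single libraries 1 to 3, and the replicate block 2. For stroke in liver, no sex term gave 0 in control (5 genes) and 0 in PAE rats (4 genes); leaving out libraries over 40% ribosomal RNA gave 3 in control rats, and single libraries 2 to 6 and 3 to 5. Without the sex term the adjusted p were 0.0598 for Col14a1, 0.117 for Bgn, 0.112 for Mmp14 and 0.0761 for Lox in PAE liver, and 0.0897 for Col14a1 and 0.237 for Bgn in control liver. For males against females, adipose tissue (4 genes) gave 1 with no filter and 0 to 10 with single libraries left out, and liver (16 genes) 12 to 17; without libraries over 40% ribosomal RNA liver gave 11. With the replicate block adipose tissue gave 3, without Col4a1 (adjusted p = 0.0566), and liver 14, without Col5a2 (0.0714) and Sparc (0.0758). The tissue difference in stroke response (4 genes) gave 2 without libraries over 40% ribosomal RNA, 5 with the replicate block, though without Dcn (-0.79, adjusted p = 0.0555), and 1 to 3 with replicate numbers left out, and the tissue comparison (36 genes) 35 to 36. The sex difference in stroke response (0 genes) gave 1 with DESeq2 in control adipose tissue and 1 in control liver, and 0 to 1 in control liver with single libraries left out. The cause of these changes was not tested.

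Stroke and naive libraries of one replicate number were not treated as pairs. The rule asked every pair to correlate over 0.1, which does not decide whether a number marks a pair. Deviations of same-numbered stroke and naive libraries correlated at between -0.303 and 0.302 in adipose tissue (median 0.149). In liver they correlated at between -0.247 and 0.376 (median 0.206). They passed 0.1 in 10 of 15 and 9 of 15 pairs, and 7 and 8 of the 15 correlated best with their own number. The number expected by chance was not computed, and pairing was not tested. Of the 30 adipose and liver pairs of one code, 14 passed 0.1 and 23 correlated best with their own code, a hint from the data that a code may mark one animal, which the labels do not state; the tissue tests do not use it outside the block.

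Depth limits Postn, Col15a1, Fmod, Lox, Lum, Loxl1, Fbln1 and Timp1 in liver, where the lowest library held 0 to 9 reads.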
